A study of Mus musculus with 4 samples.

Results

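Schlafen genes encode a family of cytoplasmic and nuclear proteins that, in the mouse, lie side by side on chromosome 11. They were examined here in a mouse macrophage cell line treated with 3 proteasome inhibitors. The members were taken by name, as Slfn1, Slfn2, Slfn3, Slfn4, Slfn5, Slfn8 and Slfn9, and every probe of the array that RefSeq ties to one of these names was kept. This gave 7 genes of the 20140 named genes on the array, measured by 9 of its 39429 probes. J774 cells (labelled J774.1, a monocyte-macrophage line from mouse) were grown in RPMI with 10% FBS and were divided over 4 treatments. MG132 and epoxomicin, the latter labelled as acting on the 20S core, inhibit the proteasome, ONX0914 is aimed at its β5 subunit and the immunoproteasome counterpart β5i, and control cells received only the solvent DMSO. Each inhibitor was given at 1 μM for 4 hours, and RNA of each treatment was read in 1 colour on 1 Agilent array, so that dose and time were matched across the 3 compounds. The study asked which genes differed in expression once proteasomes were inhibited. The treatment label of 1 array reads ONX-0912, whereas its title and the treatment protocol name ONX0914, which is the name used here. The cells are 1 tumour-derived line, and all 4 arrays were on 1 slide and were scanned on 1 day.

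The Schlafen proteins are known as products of interferon-stimulated genes. Type I interferon binds its receptor, kinases on the receptor are activated, and the signal ends at the interferon-stimulated response element in front of the target genes. All Schlafen proteins carry a core domain related to nucleic acid binding, and several members cut or bind transfer RNA. The mouse genes fall into a short class with little beyond the core (Slfn1 and Slfn2), an intermediate class (Slfn3 and Slfn4) and a long class with a helicase-like carboxy-terminal region (Slfn5, Slfn8 and Slfn9). In the blood system the family is best known for T cell quiescence, which needs Slfn2, and for differentiation of myeloid cells, in which Slfn4 is induced by interferon and by Toll-like receptor ligands.

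Between 60.3% and 63.1% of the spots on an array were well above background by the scanner software, none was saturated, and the 75th percentile of the signal, by which each array was scaled, lay between 1448 and 1669. No treatment had a replicate array, so differences carry no test and no p-value. The error given with each difference is an SD over repeated spots, combined over the 2 arrays of the difference and taken from probes printed 10 times with a brightness within 1 log2 unit of the gene, and it covers the printing and reading of 1 RNA, not the variation between cultures. The scanner software's own error was larger, 0.204 on the log2 scale for a difference between 2 clear signals, since it put each signal's error at about 10%. A difference of 2-fold, 1 on the log2 scale, was counted as a call. Differences and folds are of scaled signals, while the signals printed here are before scaling, so the order of arrays can differ between them. Of 8 macrophage markers, the 7 that had a probe matched by its accession stood well above background on all arrays. Their median difference from DMSO was -0.14, -0.05 and -0.03 for MG132, epoxomicin and ONX0914. Of these, Mertk was called higher with MG132 (1.03) and Lyz2 lower with epoxomicin (-1.01). Of the other cell types, B cell markers were not well above background on any array (0 of 4), while T cell markers were for 3 of 5 (Cd3e, Cd4 and Lck), with Cd3g and Cd8a at background. Lck differed from DMSO by 1.26, 1.44 and 0.90. The summed signal of the T cell list was 6779 under DMSO and 7915, 8998 and 8278 under MG132, epoxomicin and ONX0914, and that of the epithelial and fibroblast list, with 2, 2, 4 and 1 of 6 genes above background, was 153, 166, 275 and 119. In the latter list the keratin gene Krt8 was higher than DMSO on the log2 scale by at least 1.55 for MG132 and at least 3.02 for epoxomicin and not well above background under DMSO or ONX0914, Krt18 was higher by at least 1.18 for epoxomicin, and Epcam and Col1a1 were not well above background on any array. The part of other cell types in the differences below was not tested.

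The 5 genes Slfn1, Slfn2, Slfn3, Slfn4 and Slfn8 had a higher signal with each of the 3 inhibitors than with DMSO. Slfn4 had the largest measured difference of them, Slfn9 stayed below 2-fold from DMSO by both of its probes, and Slfn5 was not well above background on any array. Counting calls, 5 of the 6 members that could be compared (7 in all) were at least 2-fold higher with MG132, beside 7.25% of the 13774 genes tested. The same 5 were called with epoxomicin, beside 8.49% of 13868 genes, and with ONX0914, beside 3.27% of 13790 genes. No member was at least 2-fold lower with any inhibitor, beside 3.69%, 4.41% and 1.4% of the genes tested with MG132, epoxomicin and ONX0914. The median over the 6 compared members was 2.20 under MG132, 2.57 under epoxomicin and 1.47 under ONX0914 on the log2 scale, and over all genes tested it was -0.02, -0.04 and -0.01. A member with no signal well above background on either array could not be compared, and the 6 had to be above background with at least one treatment to enter, so these counts describe the members and nothing more. Slfn1 was not well above background with DMSO, so it could enter only as higher. Of the 5 members well above background on all arrays, 4 were called higher with each inhibitor, and the share of all genes was not computed for that set. All 3 comparisons use the same DMSO array. In RNA from a whole culture, a change in the number of cells that express a gene and a change in its RNA per cell cannot be told apart.

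**Figure D1:**
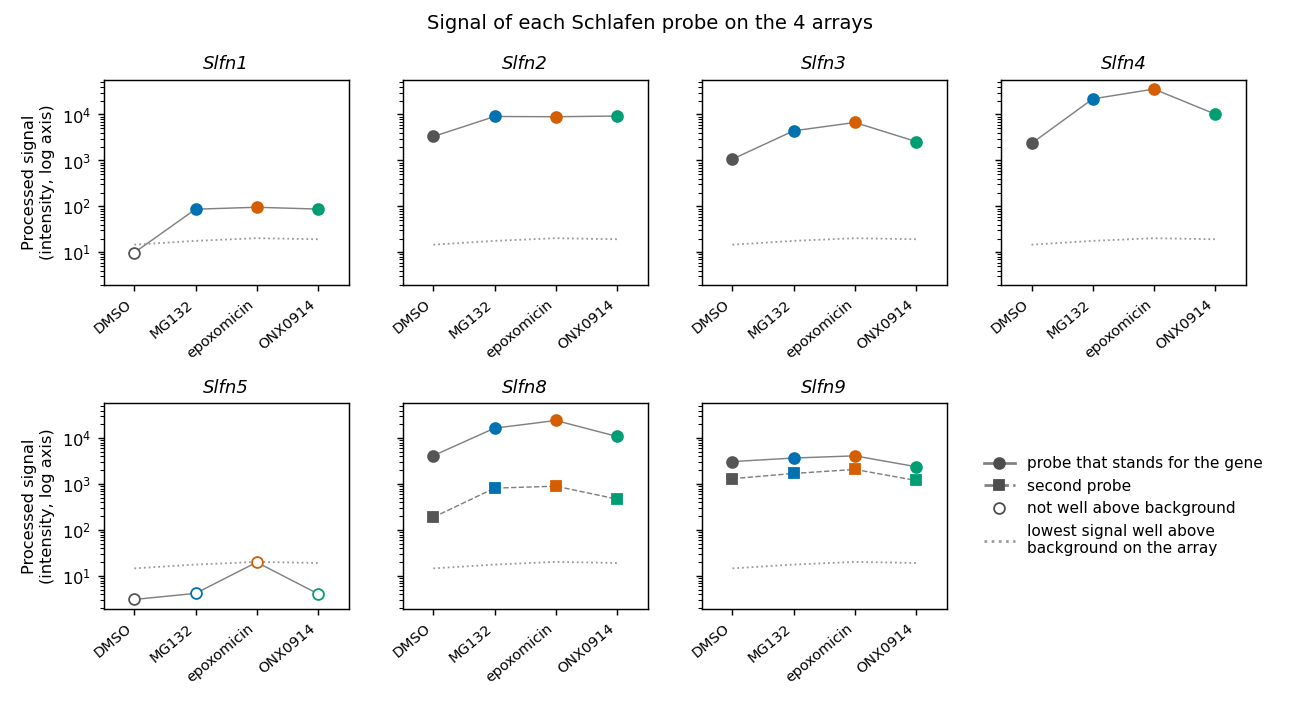
Processed signal (log scale, arbitrary units) of the 9 Schlafen probes on the 4 arrays, 1 array per treatment; squares are the other probe of Slfn8 and Slfn9, open points were not well above background, the dotted line is the lowest signal well above background, and lines only join the values of a probe. Slfn1, Slfn2, Slfn3, Slfn4 and both Slfn8 probes lie higher on the 3 inhibitor arrays than on the DMSO array, whereas the Slfn9 probes stay near their DMSO signal.

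The short-class members were Slfn1 and Slfn2. The signal of Slfn1 was 9.88 under DMSO, 87.1 under MG132, 95.8 under epoxomicin and 87.5 under ONX0914. The 3 inhibitor arrays were close to each other, and the DMSO signal was not well above background, with a scanner error of 36.8%, so only a bound is known. The bound was taken against the lowest signal that was well above background with DMSO, 14.7 before scaling. On scaled signals Slfn1 was higher by at least 6.73-fold, 6.43-fold and 6.12-fold for MG132, epoxomicin and ONX0914. With a different background correction (normexp with an offset of 50, fitted without outlier spots) the lower bound was 1.28, 1.18 and 0.91 on the log2 scale. For ONX0914 this bound lay below 2-fold, so whether the difference reached 2-fold is not known under that correction. Slfn2, which lymphocytes need to remain quiescent, had a signal of 3321 under DMSO, 9047 under MG132, 8942 under epoxomicin and 9248 under ONX0914. It was higher with all inhibitors, by a log2 difference of 1.63 ± 0.0718 under MG132, 1.41 ± 0.0715 under epoxomicin and 1.52 ± 0.0721 under ONX0914. The 3 inhibitor arrays lay close together for both genes.

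Slfn3 and Slfn4 are the intermediate-class members, and Slfn4 is the family member best known for induction in activated macrophages. The signal of Slfn3 was 1071 under DMSO, 4419 under MG132, 6700 under epoxomicin and 2578 under ONX0914. All 3 inhibitors gave more signal than DMSO, epoxomicin the most and ONX0914 the least, with log2 differences of 2.23 ± 0.0780, 2.63 ± 0.0764 and 1.31 ± 0.0789. The signal of Slfn4 was 2348 under DMSO, 21871 under MG132, 35747 under epoxomicin and 10187 under ONX0914. The order of the treatments was the same as for Slfn3. These were log2 differences of 3.40 ± 0.0708 under MG132, 3.91 ± 0.0749 under epoxomicin and 2.16 ± 0.0721 under ONX0914, equal to 10.6-fold, 15.0-fold and 4.46-fold. Ranked from the highest difference among the genes measured on both arrays, Slfn4 stood at place 46 of 13005 under MG132, 42 of 13040 under epoxomicin and 59 of 12992 under ONX0914.

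Slfn5, Slfn8 and Slfn9 are the long-class members. The main Slfn8 probe, the brighter of its pair, read 4177 under DMSO, 16542 under MG132, 24273 under epoxomicin and 10910 under ONX0914. Its difference from DMSO was 2.17 ± 0.0698, 2.52 ± 0.0684 and 1.42 ± 0.0703 on the log2 scale. The other Slfn8 probe read 191, 820, 903 and 473 on the same arrays, with differences of 2.29, 2.22 and 1.35. Both probes put ONX0914 lowest of the inhibitors. The main probe put epoxomicin above MG132. The other gave -0.06 ± 0.0777 for epoxomicin against MG132, within its spot SD, and so gave them no order. The main Slfn9 probe read 3097 under DMSO, 3704 under MG132, 4129 under epoxomicin and 2396 under ONX0914, and its other probe read 1318, 1710, 2091 and 1203. Slfn9 was thus slightly higher than DMSO with MG132 and epoxomicin and slightly lower with ONX0914 by both probes, by 0.44 ± 0.0738, 0.40 ± 0.0748 and -0.33 ± 0.0736 for the main probe and by 0.56, 0.65 and -0.09 for the other, all below 2-fold. Slfn5 read 3.10 under DMSO, 4.20 under MG132, 20.0 under epoxomicin and 4.11 under ONX0914, and no array was called well above background, so no fold is given. The sequences of the probes were not used here, so cross-hybridisation between these related transcripts was not checked.

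**Figure D2:**
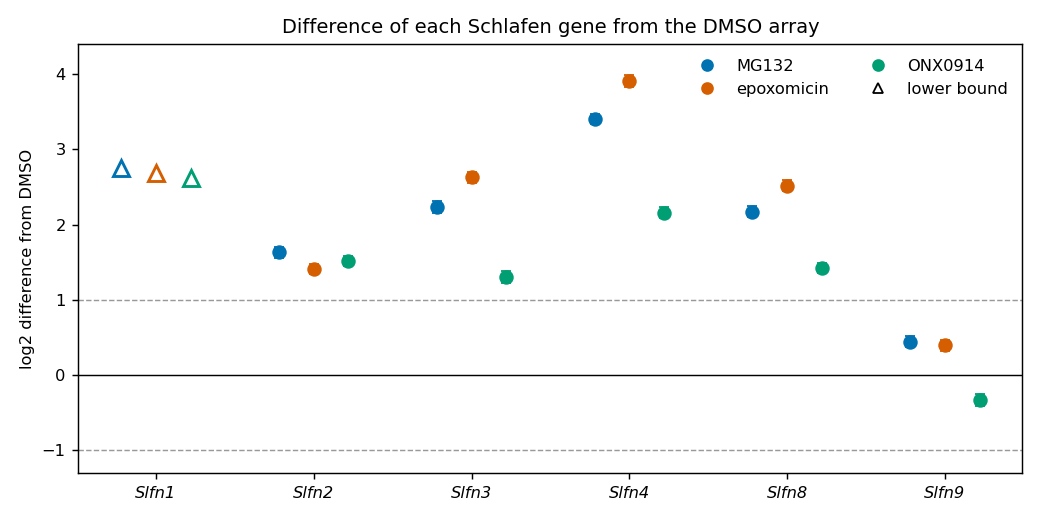
Difference from the DMSO array (log2 of scaled signal) for each Schlafen gene with each inhibitor; bars are the spot-to-spot SD of the difference, open triangles mark lower bounds (Slfn1), and dashed lines mark 2-fold. Slfn4 has the highest measured value with each inhibitor (3.40, 3.91 and 2.16), and Slfn9 lies near 0.

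**Figure D3:**
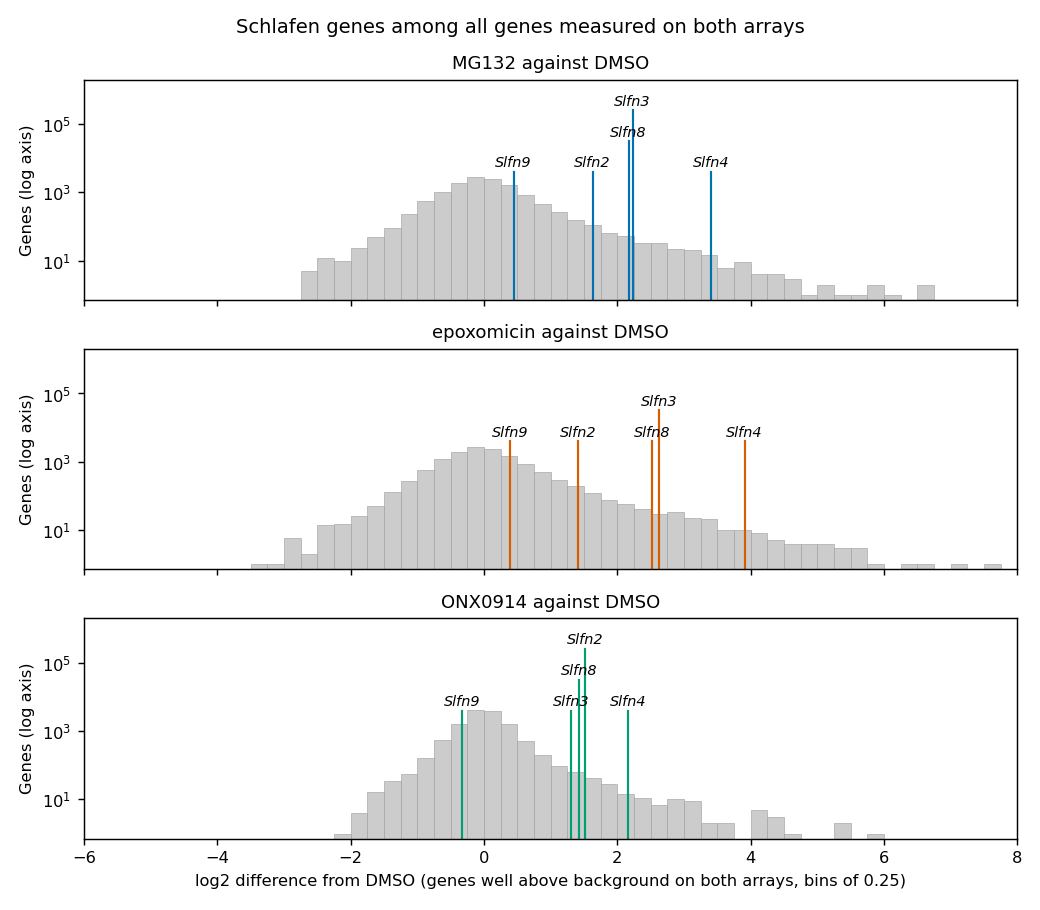
Histogram of the log2 difference from DMSO over the genes well above background on both arrays, on a log count axis, 1 panel for each inhibitor, with the Schlafen genes that have a measured value marked. Slfn2, Slfn3, Slfn4 and Slfn8 lie past 1 (2-fold) in all 3 panels and Slfn9 lies near 0; Slfn1 has only a bound and is not drawn.

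The 3 inhibitors were then compared with each other at the same dose and time, in 3 pairs for each gene. Between epoxomicin and MG132 no Schlafen gene differed by 2-fold, beside 1.52% of all 13631 genes tested in either direction. Slfn3, Slfn4 and Slfn8 were higher with epoxomicin by 0.40 ± 0.0669, 0.50 ± 0.0647 and 0.35 ± 0.0614, and the other Slfn8 probe gave -0.06 ± 0.0777. With ONX0914, Slfn4 was lower than with MG132 by 2.38-fold (-1.25 ± 0.0614), beside 3.04% of all 13705 genes tested that were lower by 2-fold. Slfn3, Slfn8 and Slfn9 were lower too, by 1.90-fold, 1.68-fold and 1.71-fold. Against epoxomicin, ONX0914 gave a lower Slfn4 by 3.37-fold, Slfn3 by 2.50-fold and Slfn8 by 2.14-fold, beside 4.42% of all 13791 genes tested, and Slfn9 by 1.65-fold. The other Slfn8 probe gave 1.83-fold lower, short of the call. For Slfn1 and Slfn2 no pair of inhibitors differed by 2-fold. The largest difference among the pairs was -0.14 ± 0.153 for Slfn1 and -0.22 ± 0.0630 for Slfn2, and the scanner error of such a difference was 0.204 or more. With the scaling used here, the 3 inhibitors lay within the scanner error of each other for Slfn1, and for Slfn2 only epoxomicin and MG132 differed by more than it. These small differences moved with the processing: ONX0914 against MG132 was -0.37 with normexp for Slfn1 and -0.29 with Hprt scaling for Slfn2, and epoxomicin against MG132 was -0.02 without scaling for Slfn2, so no order of the inhibitors is given for either gene. For Slfn3, Slfn4 and Slfn8 the order was epoxomicin, MG132, ONX0914 and DMSO, each neighbour differing by more than the scanner error on the main probes; the other Slfn8 probe did not separate epoxomicin from MG132. For Slfn9, epoxomicin and MG132 were within it of each other (-0.05 ± 0.0689), while ONX0914 was lower than both. Against DMSO, ONX0914 was lower by more than the scanner error on the main Slfn9 probe only.

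**Figure D4:**
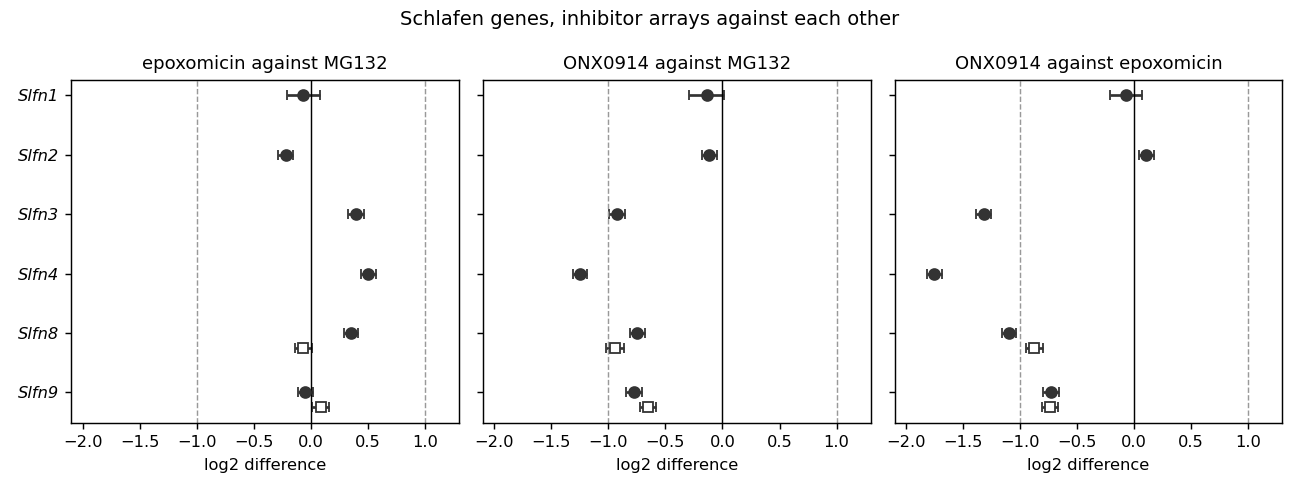
Differences between pairs of inhibitors (log2 of scaled signal) for each Schlafen gene, bars showing the spot-to-spot SD of the difference, open squares the other probe of Slfn8 and Slfn9, and dashed lines 2-fold. Slfn4 under ONX0914 against epoxomicin is the farthest from 0, at -1.75, and the Slfn1 and Slfn2 values lie between -0.22 and 0.11.

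Sequence in front of the genes was taken from RefSeq, which holds a window from 250 bases before to 50 after the start for all 7 members (build GRCm38.p6), with 2 windows for Slfn8. The 250 bases before the start are printed for Slfn1 and Slfn4, which share a 15-base run and which contain a 9-base run found in the windows of Slfn1, Slfn2, Slfn3 and Slfn4, in capitals where it occurs. The run, ACTTCCTGG, was found by looking at these windows, so its presence in them is no result. It occurs in 0.843% of all 32851 windows.
Slfn1, chr11:83116570-83116819, plus strand: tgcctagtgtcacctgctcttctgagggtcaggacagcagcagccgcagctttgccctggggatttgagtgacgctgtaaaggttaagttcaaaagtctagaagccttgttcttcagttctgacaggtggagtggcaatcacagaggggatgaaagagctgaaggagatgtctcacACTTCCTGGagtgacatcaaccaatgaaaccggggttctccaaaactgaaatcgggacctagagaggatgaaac
Slfn4, chr11:83174936-83175185, plus strand: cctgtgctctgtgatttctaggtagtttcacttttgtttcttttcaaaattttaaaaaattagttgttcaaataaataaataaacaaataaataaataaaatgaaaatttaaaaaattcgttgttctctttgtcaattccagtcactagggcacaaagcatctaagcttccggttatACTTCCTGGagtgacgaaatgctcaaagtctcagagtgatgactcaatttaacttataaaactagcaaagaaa
The run begins 74 and 73 bases before the start in Slfn1 and Slfn4. It begins 55 bases before the start in Slfn2 and 42 in Slfn3, both shown with 8 bases on each side, to place them beside the windows above.
Slfn2: gggctttcACTTCCTGGagggtgac
Slfn3: atgacagaACTTCCTGGgggaggga

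The same windows were searched on both strands for 3 motifs. Only exact matches were taken, so a site with a changed letter was not counted. The first resembles the interferon-stimulated response element (GAAA, then 2 bases of any kind, then GAAA) and was found in 3.44% of all windows. It occurred in the windows of Slfn5, Slfn8 and Slfn9, and in none of Slfn1, Slfn2, Slfn3 and Slfn4. The Slfn8 and Slfn9 windows were 80.8% identical over 312 alignment columns, whereas every other pair of members was 46.5% to 53.0% identical. The matches lay 48 and 45 bases before the start on the reverse strand in Slfn8 and Slfn9, and 136 bases before the start of the other Slfn8 window, where it is the same site. The 2 windows are shown because these neighbouring genes carry the same match but differed in the size of their differences above, with the match in capitals.
Slfn8, chr11:83020811-83021060, minus strand: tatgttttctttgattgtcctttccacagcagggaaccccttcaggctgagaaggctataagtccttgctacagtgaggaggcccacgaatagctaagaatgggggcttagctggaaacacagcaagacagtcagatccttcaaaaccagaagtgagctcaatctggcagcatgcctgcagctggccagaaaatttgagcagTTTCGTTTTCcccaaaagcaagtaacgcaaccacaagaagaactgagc
Slfn9, chr11:82991831-82992080, minus strand: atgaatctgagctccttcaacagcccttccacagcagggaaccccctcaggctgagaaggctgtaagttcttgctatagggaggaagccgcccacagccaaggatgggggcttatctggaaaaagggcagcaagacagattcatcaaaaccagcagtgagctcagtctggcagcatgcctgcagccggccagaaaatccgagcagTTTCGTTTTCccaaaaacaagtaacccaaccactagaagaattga
In Slfn5, which was not well above background, the match lay 155 bases before the start, shown with 8 bases on each side.
Slfn5: ttcaaagtGAAAAAGAAAaaaaaaaa
A second motif that resembles the gamma-activated sequence (TTCNNNGAA) was in 8.3% of all windows and another that resembles a kappaB site (GGGA, then 2 bases of any kind, then TTCC) in 1.47%, and neither was in a member's window. A match of letters is not a bound site, and the factors that bind such letters were not measured.

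In the order of the RefSeq table the Schlafen genes follow Rad51d, Fndc8, Nle1 and Unc45b, and the genes after them include Slfn14, Ap2b1 and Rasl10b. Their order is Slfn5, Slfn9, Slfn8, Slfn2, Slfn1, Slfn4 and Slfn3, so that Slfn9 and Slfn8 are adjacent members and differ in size of difference, and Slfn4 and Slfn3 are adjacent members with the same order of treatments. Of these neighbours, the DNA repair gene Rad51d differed by -0.01, -0.04 and 0.02, Nle1 by 0.36, 0.20 and 0.19 and the clathrin adaptor gene Ap2b1 by -0.16, -0.86 and -0.22. Fndc8 and Unc45b were not well above background on any array, and Rasl10b was on the DMSO and ONX0914 arrays only. Slfn14, a family relative outside the 7, was not well above background on any array.

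Other interferon-stimulated genes were described next to the family from a list of 23, of which 21 had a probe matched by its accession and were compared. Of the 21, 20 were at least 2-fold higher with MG132, 20 under epoxomicin and 16 under ONX0914, and none was lower, with medians of 2.66, 2.84 and 1.88. The Schlafen medians were lower than these, at 2.20, 2.57 and 1.47. Over all genes tested, beside which each list here stands, 7.25%, 8.49% and 3.27% were higher and 3.69%, 4.41% and 1.4% lower. The medians over all genes were -0.02, -0.04 and -0.01. The highest of the interferon-stimulated list was Rsad2, the antiviral enzyme viperin, at 6.10, 6.66 and 5.31, followed by the nucleotide kinase Cmpk2 at 4.36, 4.94 and 4.00. The lowest were the nucleic acid sensor Zbp1 at 0.50, 0.73 and 0.47 and the tetherin gene Bst2 at 1.09, 1.13 and 0.51. Of the 14 genes of interferon receptors and signalling, 5, 5 and 4 were higher and 3, 3 and 0 lower, with medians of 0.26, 0.40 and 0.16. Socs1, an inhibitor of the pathway, was at 3.06, 3.34 and 4.43 and the transcription factor Irf1 at 2.51, 2.80 and 2.63, while the receptor subunits Ifnar1 and Ifngr2 were at -1.23, -1.34 and -0.66 and at -1.72, -2.28 and -0.76. Of the 10 genes that cut, join or guard transfer RNA, none was called higher and 2, 2 and 0 were lower, with medians of -0.06, -0.04 and -0.03. The lower ones were the ribonuclease Ang, at -1.38, -1.37 and -0.72, and the splicing endonuclease subunit Tsen34, at -1.03, -1.24 and -0.45, while the ribonuclease inhibitor Rnh1 was at 0.26, 0.0019 and 0.44.

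The genes with the most similar pattern to each Schlafen gene were found by the Euclidean distance over the 3 log2 differences from DMSO, among 12721 genes well above background on all arrays. For Slfn4 these were Isg15, the ubiquitin-like interferon product, at 3.31, 3.93 and 2.39, and the guanylate-binding protein gene Gbp3, at 3.24, 3.78 and 1.99, at distances of 0.253 and 0.272. For Slfn8 they were Trim30d (2.16, 2.45 and 1.33) and Ifi202b (2.29, 2.51 and 1.39), both at a distance of 0.119. Phlda1 and the kinase gene Stk38l were nearest to Slfn3, at 0.0792 and 0.126, and the zinc finger gene Zfp142 and Map2k3os to Slfn2, at 0.0859 and 0.175. Pramel48 and Gas2l3 were nearest to Slfn9, at 0.0880 and 0.107. A pattern over 3 differences that share 1 DMSO array is a description only.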

How the data were processed

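Total RNA of J774 cells from 4 treatments was labelled with Cy3 and hybridised to an Agilent mouse array (design 026655, by the file headers, although the methods name a human design), 1 array each. The deposited intensity per spot is the processed signal of Feature Extraction 10.7.1.1, in which the authors' scanner software subtracted background. A deposited table of log2 values that the authors made in GeneSpring was used as an alternative, whose shift between arrays stays unknown. Its column medians were -0.05, 0.02, -0.02 and 0.01, and its lowest Pearson correlation with the centred log2 signal on an array was 0.99963. No columns of the authors' own comparisons were used.

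Control spots and outlier spots were left out. Each array was scaled to the 75th percentile of its signal, log2 was taken, and spots of a probe were averaged; where a gene has several probes the brightest on average stood for it. A signal not well above background on one side was replaced by the lowest signal that was well above background on that array, or its own where higher, and the fold is then a bound. Genes were named by matching the accession of the probe to RefSeq, which named 26575 of 39429 probes. Calls were at 2-fold. Python 3.11.15, pandas 2.3.3 and R 4.3.3 with limma 3.58.1 (normexp, offset 50) were used, and the code was tested on simulated data. The members, lists and motifs were chosen with earlier results of these data known. The named genes were all members, the 2 highest and 2 lowest of a list, the 4 neighbours on each side, and the 2 nearest patterns; 1 neighbour is not reported here. The lowest-mean probe and the 9-base run were added after seeing the data.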

Additional observations from a re-analysis of the deposited data

How the results depend on the processing

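No paired analysis was possible because each group had 1 array. Over the other settings, 407 values of a member's log2 difference moved by less than the spread of spots and 88 by more. No called value changed sign. Part of the 407 could not move. No member spot was an outlier, and the filters on dim genes only chose which members entered. Slfn1, Slfn2, Slfn3 and Slfn4 have a single probe, so the choice of probe could not change them. The 407 is thus no measure of stability. Slfn2, Slfn3, Slfn4 and Slfn8 were at least 2-fold above DMSO with each inhibitor under every setting run; for Slfn4 the log2 difference ranged from 3.22 to 3.61 with MG132, from 3.82 to 4.07 with epoxomicin and from 2.10 to 2.19 with ONX0914. Slfn1 values ranged from 1.28 to 3.32, from 1.18 to 3.26 and from 0.91 to 3.19, which is not the spread of a measured difference. The low ends were lower bounds, from normexp fitted without outlier spots. The high ends used the DMSO signal, not well above background, in place of a bound. Normexp on all spots gave no value for Slfn1 against DMSO. Scaling by Hprt alone raised the count of genes called for ONX0914 against MG132 from 1 to 2. With the threshold raised to 4-fold, MG132 and epoxomicin each kept 4 of the 5 members called above DMSO, while ONX0914 kept 2 of 5. Slfn1, which has only a bound, was among those kept with each inhibitor, and with ONX0914 the other was Slfn4. The count of members lower with ONX0914 fell from 1 to 0 against MG132 and from 3 to 0 against epoxomicin. The share of all genes passing 4-fold was not computed, so these 4-fold counts describe the members only. The Slfn8 difference between epoxomicin and MG132, -0.06 by the probe with the lowest mean, had the opposite sign of the main value. Other differences below 2-fold changed sign too: without scaling, epoxomicin against MG132 was 0.14 for Slfn1 and 0.16 for Slfn9, and ONX0914 against MG132 was 0.0080 for Slfn1 and 0.03 for Slfn2; with Hprt, ONX0914 against epoxomicin was -0.03 for Slfn2; and for Slfn9, epoxomicin against MG132 was 0.02 by the mean over probes and 0.09 by the probe with the lowest mean. The median of all genes moved by over 0.1 with normexp (-0.28, -0.30 and -0.17), no filter on dim probes (0.26, 0.26 and 0.16), no scaling (-0.20 with MG132) and Hprt (0.19 and 0.13 with MG132 and epoxomicin). Detection of members was 5, 6, 6 and 6 for DMSO, MG132, epoxomicin and ONX0914, 6, 7, 7 and 6 by the software's positive and significant call and 6, 6, 7 and 6 against the 95th percentile of negative controls. With 1 array per treatment, differences between cultures cannot be told apart from those between treatments.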
